A study of Homo sapiens with 16 samples.

Results

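The mitochondrial ribosomal protein genes encode the protein part of the ribosome that works inside mitochondria. They were taken as every gene whose symbol in the deposited annotation starts with MRPL (large subunit) or MRPS (small subunit) followed by a digit. Probe sets that named more than 1 gene were not used, no pseudogene met the symbol rule, and the values of a gene's probe sets were averaged. This gave 74 genes (46 MRPL and 28 MRPS) from 129 probe sets, out of 20276 genes measured.

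RNA came from 16 xenograft tumours grown from PC-3, a much used cell line of human prostate cancer, with 1 Affymetrix array per tumour and 4 tumours for each of 4 lines. In every line 1000000 cells were injected under the skin of female nude mice of BALB/c background, aged 5 weeks, and tumours were taken once they measured at least 5 mm across. The mock line had short telomeres and only the basal hTERT of PC-3 (hTERT is the catalytic protein of telomerase, which lengthens chromosome ends). The LhTERTL line had long telomeres and overexpressed exogenous hTERT. The line called mock_cre here (mock/cre+) had short telomeres, basal hTERT and no exogenous hTERT. The line called LhTERTL_cre here (LhTERTL/cre+) had long telomeres with basal hTERT, the exogenous hTERT being absent. The comparison asked of these lines was how tumours with long telomeres differ from tumours with short ones. It was made within each pair of lines (LhTERTL minus mock, and LhTERTL_cre minus mock_cre) and as the mean over these pairs.

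Because every group consists of 1 line, telomere length and any other difference between the lines cannot be told apart. The p-values measure the spread among tumours of a line. Whether a line is 1 clone, and what drives the exogenous hTERT, is not given in the sources used here. The log2 signals were deposited after subtraction of the probe set's own median across all 16 arrays: they show differences between tumours and hold no expression level, so the order of the genes by abundance is unknown and the labelled tissue could not be checked by marker levels.

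Mitochondria keep a small genome of their own that codes for core subunits of the respiratory chain, and a dedicated ribosome translates them. Its RNA is made in the mitochondrion, whereas all of its proteins are encoded in the nucleus, translated in the cytosol and imported. Some of these proteins descend from the bacterial ribosome, and others were added in mitochondria during evolution.

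Mitochondrial ribosomal protein genes were more often higher than lower in the tumours with long telomeres. Of the 74 genes, 28 rose and 4 fell (limma, adjusted p under 0.05), and 42 did not pass. Over all 20276 genes 32.6% passed, 18.5% higher and 14.1% lower, against 37.8% higher and 5.41% lower among the 74. The changes were small: the median change was 0.10 on the log2 scale, against 0.02 over all genes. Only MRPL15, MRPL14, MRPL48 and MRPS6 changed by 0.5 log2 units or more, and 0 reached a doubling. The change was positive in 54 of the 74 (73.0%), against 55.5% of all genes. The genes that did not pass ranged from -0.21 to 0.15. In a whole tumour, fewer cells of a type and less RNA per cell cannot be told apart.

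**Figure D1:**
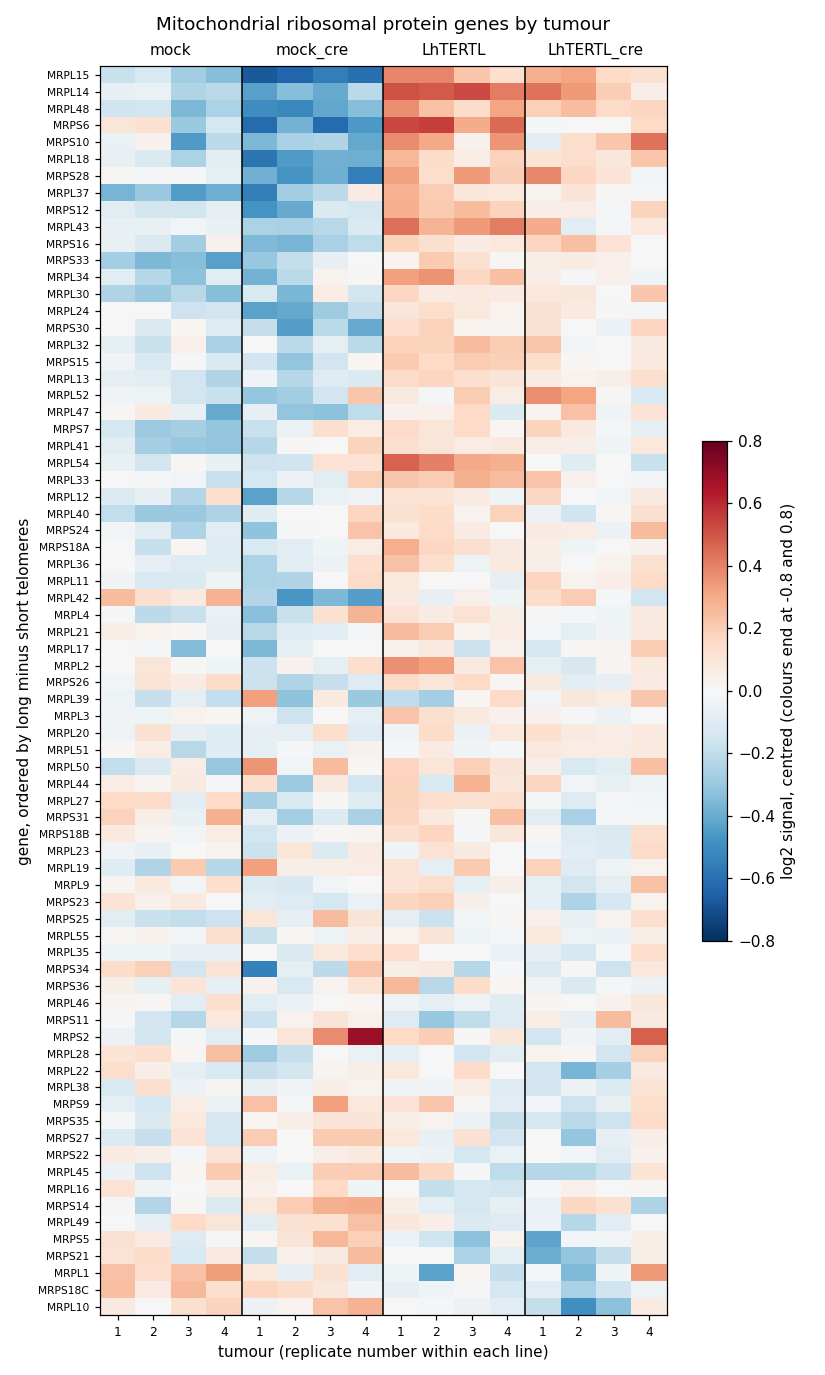
Centred log2 signal (colour) of the 74 mitochondrial ribosomal protein genes (vertical axis, ordered by the change from short to long telomeres) in the 16 tumours (horizontal axis, by line and replicate number). The top of the list, from MRPL15, MRPL14 and MRPL48 downward, is low in mock and mock_cre and high in LhTERTL and LhTERTL_cre; the differences fade toward the middle of the list, and MRPL10 and MRPS18C stand at the bottom.

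The mean over the 74 genes in each tumour showed the same order of lines. In mock it was -0.05 ± 0.03 (SD, n = 4) and in LhTERTL 0.09 ± 0.04; in mock_cre it was -0.09 ± 0.07 and in LhTERTL_cre 0.02 ± 0.05. The 4 mock tumours lay between -0.08 and -0.01 and the 4 LhTERTL tumours between 0.05 and 0.14, without overlap. In the other pair mock_cre ran from -0.16 to -0.01 and LhTERTL_cre from -0.03 to 0.08, and these ranges overlapped.

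Among the MRPL genes, 18 of 46 rose and 1 fell, with a median change of 0.11. Among the MRPS genes, 10 of 28 rose and 3 fell, with a median of 0.03; whether these groups differ was not tested. Over all genes 18.5% rose and 14.1% fell, with a median of 0.02. The split of the members follows the symbols, and some MRPS symbols name proteins outside the small subunit (MRPS18A, MRPS30 and MRPS36, now KGD4). By the number in the symbol, 43 genes have a bacterial counterpart (MRPL up to 36, MRPS up to 21), and of these 17 rose and 4 fell, with a median of 0.11. Of the 31 genes with higher numbers, most of them for proteins added in mitochondria, 11 rose and 0 fell by limma's adjusted p (1 was lower at an unadjusted p under 0.05), with a median of 0.08.

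**Figure D2:**
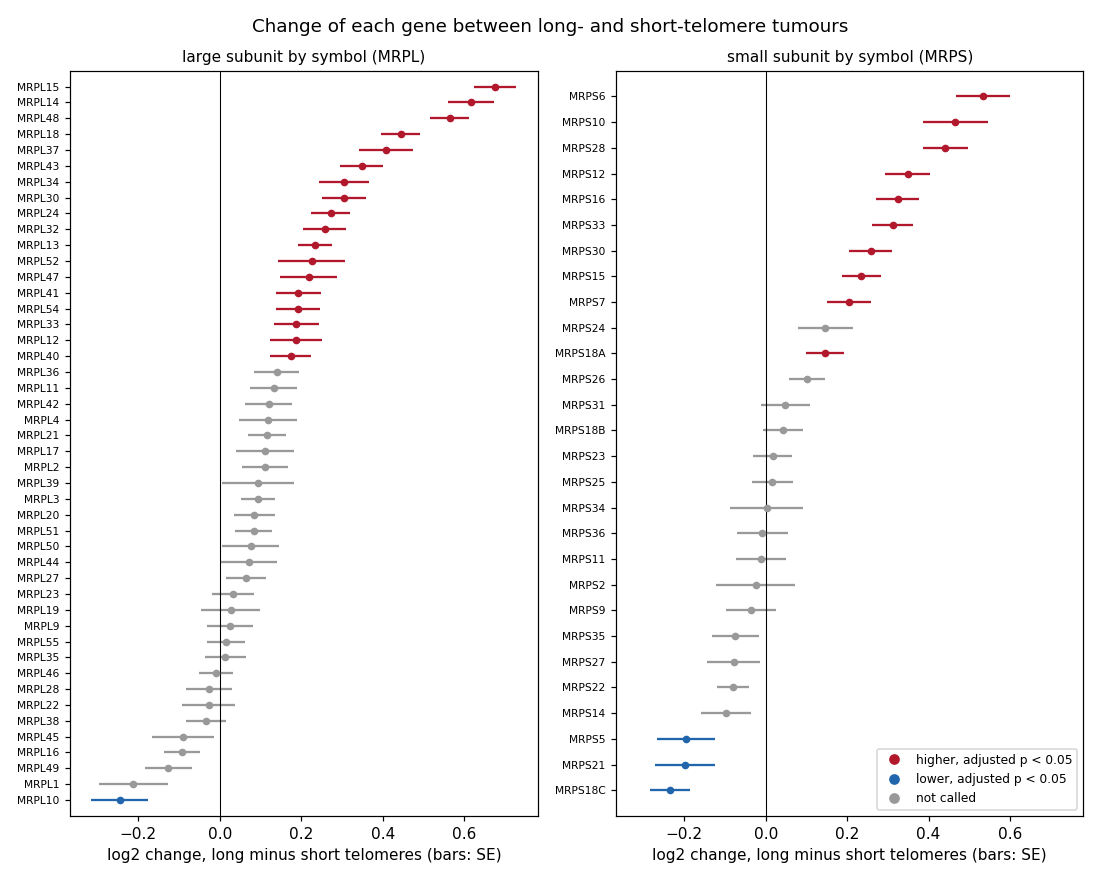
Change from short to long telomeres (log2, horizontal axis; bars show the standard error) of each MRPL gene (left panel) and each MRPS gene (right panel), coloured by the limma call. Red points (18 on the left, 10 on the right) run up to 0.68 for MRPL15, and blue points (1 and 3) reach -0.25 for MRPL10.

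MRPL15, the counterpart of bacterial L15 in the large subunit, had the largest change. Its centred signal was -0.18, -0.12, -0.28 and -0.34 in mock tumours 1 to 4 and 0.39, 0.39, 0.22 and 0.14 in LhTERTL tumours 1 to 4. It was -0.67, -0.64, -0.55 and -0.60 in mock_cre and 0.28, 0.32, 0.16 and 0.12 in LhTERTL_cre. All 8 tumours with long telomeres lay above all 8 with short ones, and mock_cre lay below mock. The change was 0.68 ± 0.05 (SE; limma adjusted p = 5.87e-08), 0.51 in LhTERTL minus mock and 0.84 in the cre pair.

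MRPL14, the counterpart of bacterial L14, lies at the face of the large subunit that meets the small one. It stood at -0.07, -0.06, -0.24 and -0.22 in mock and at 0.51, 0.49, 0.53 and 0.41 in LhTERTL. It stood at -0.43, -0.34, -0.40 and -0.22 in mock_cre and at 0.43, 0.34, 0.20 and 0.06 in LhTERTL_cre. The long-telomere and short-telomere tumours did not overlap, and the change was 0.62 ± 0.06 (limma adjusted p = 4.2e-07), nearly equal in the pairs (0.63 and 0.60).

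MRPL48 belongs to the proteins of the large subunit that bacteria lack. Its values were -0.16, -0.15, -0.36 and -0.25 in mock, 0.37, 0.23, 0.15 and 0.31 in LhTERTL, -0.50, -0.52, -0.41 and -0.34 in mock_cre, and 0.19, 0.25, 0.15 and 0.17 in LhTERTL_cre. Here too every long-telomere tumour was above every short-telomere one, with a change of 0.56 ± 0.05 (limma adjusted p = 1.81e-07). MRPL18, the counterpart of bacterial L18, was -0.06, -0.11, -0.25 and -0.09 in mock, 0.27, 0.15, 0.06 and 0.18 in LhTERTL, -0.58, -0.46, -0.39 and -0.39 in mock_cre, and 0.11, 0.14, 0.09 and 0.22 in LhTERTL_cre. Its groups by telomere length did not overlap either, its lowest values were in mock_cre, and the change was 0.44 ± 0.05 (limma adjusted p = 2.06e-06).

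MRPL37, another large-subunit protein without a bacterial counterpart, behaved less evenly. It was -0.37, -0.30, -0.45 and -0.39 in mock, 0.28, 0.20, 0.09 and 0.08 in LhTERTL, -0.55, -0.28, -0.21 and 0.06 in mock_cre, and 0.03, 0.10, 0.01 and -0.01 in LhTERTL_cre. The LhTERTL and mock tumours were fully apart, while mock_cre tumour 4 lay within the LhTERTL_cre tumours. The change was 0.41 ± 0.07 (limma adjusted p = 0.00015), 0.54 in LhTERTL minus mock and 0.28 in the cre pair.

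In the small subunit the largest change was that of MRPS6, the counterpart of bacterial S6. Its signal was 0.10, 0.12, -0.30 and -0.14 in mock and 0.53, 0.55, 0.29 and 0.45 in LhTERTL. It was -0.62, -0.38, -0.62 and -0.46 in mock_cre and -0.01, 0.01, -0.01 and 0.16 in LhTERTL_cre. Both cre+ lines lay below their partner without cre, so that LhTERTL_cre overlapped with mock although long-telomere tumours were higher within each pair. The change was 0.53 ± 0.07 (limma adjusted p = 9.36e-06).

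MRPS10, the counterpart of bacterial S10, was measured by 3 probe sets that all rose. It was -0.06, 0.03, -0.45 and -0.21 in mock, 0.38, 0.30, 0.04 and 0.35 in LhTERTL, -0.36, -0.26, -0.24 and -0.41 in mock_cre, and -0.08, 0.14, 0.22 and 0.43 in LhTERTL_cre. Long and short telomeres were apart within each pair and overlapped across the pairs, with a change of 0.47 ± 0.08 (limma adjusted p = 0.000213). MRPS28, a small-subunit protein, stood at 0.01, -0.02, -0.01 and -0.07 in mock, 0.32, 0.14, 0.34 and 0.20 in LhTERTL, -0.39, -0.47, -0.39 and -0.56 in mock_cre, and 0.38, 0.16, 0.11 and -0.02 in LhTERTL_cre. The mock_cre tumours were the lowest of the 16, LhTERTL_cre tumour 4 lay within the mock tumours, and the change was 0.44 ± 0.06 (limma adjusted p = 1.08e-05).

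All 8 long-telomere tumours lay above all 8 short-telomere ones for 7 of the 74 genes (9.46%), against 3.91% of all genes. These were MRPL13, MRPL14, MRPL15, MRPL18, MRPL48, MRPS12 and MRPS33. MRPL13, the counterpart of bacterial L13, spanned -0.24 to -0.08 in mock, 0.10 to 0.17 in LhTERTL, -0.23 to -0.03 in mock_cre and 0.03 to 0.13 in LhTERTL_cre. MRPS12, the counterpart of the bacterial protein at the decoding centre, changed by 0.35 ± 0.06, and MRPS33, which bacteria lack, by 0.31 ± 0.05. The opposite arrangement, with all long-telomere tumours below, occurred for 0 of the 74 and for 2.30% of all genes.

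**Figure D3:**
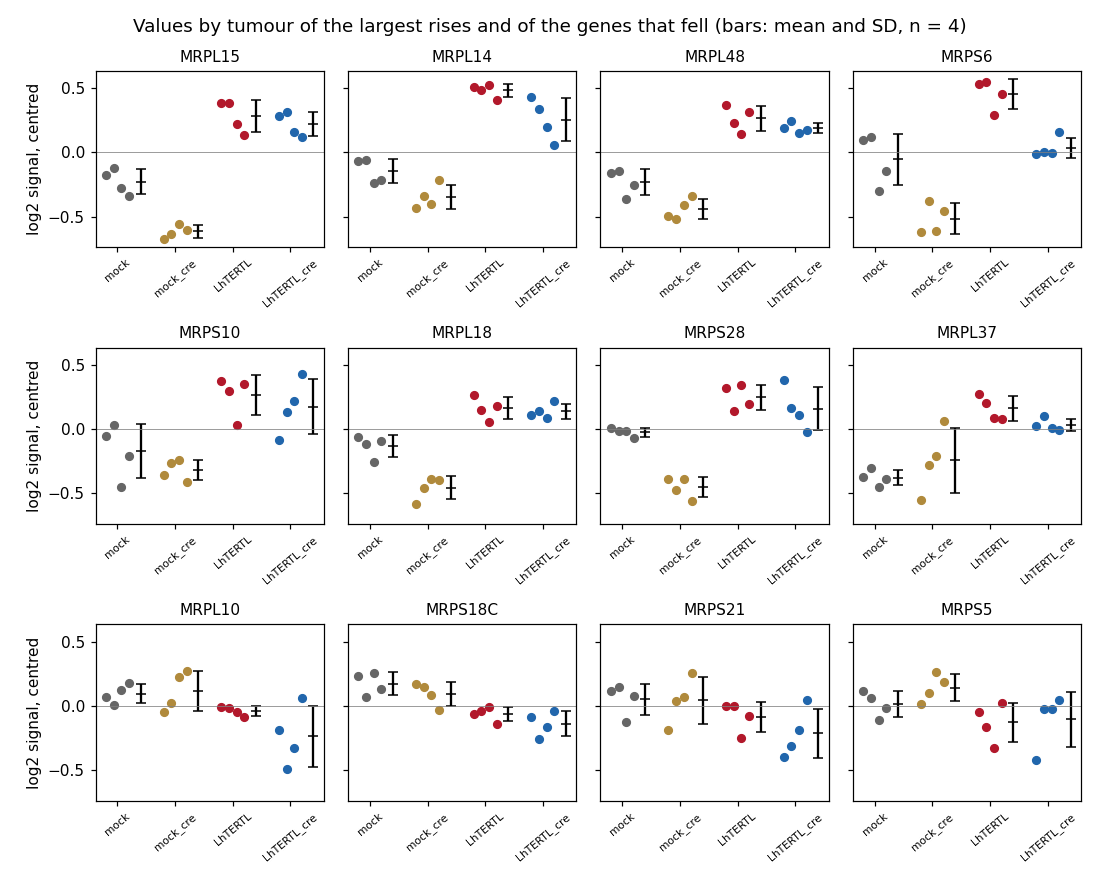
Centred log2 signal (vertical axis) of the 8 largest rises and the 4 genes that fell, in each tumour (points) of the 4 lines (horizontal axis), with the mean and SD of 4 tumours beside them. MRPL15, MRPL14, MRPL48 and MRPL18 separate long from short telomeres completely, whereas in MRPS5 and MRPS21 the lines overlap.

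The 4 genes that fell did so by 0.25 log2 units or less. MRPL10, which forms the base of the stalk that recruits translation factors to the ribosome, was 0.07, 0.01, 0.13 and 0.18 in mock, -0.01, -0.01, -0.04 and -0.09 in LhTERTL, -0.05, 0.03, 0.23 and 0.28 in mock_cre, and -0.19, -0.49, -0.33 and 0.06 in LhTERTL_cre. LhTERTL lay wholly below mock, and the cre+ lines overlapped through LhTERTL_cre tumour 4. The change was -0.25 ± 0.07 (limma adjusted p = 0.0114). The 3'/5' ratio of the array control probe sets, a sign of RNA quality, was higher in mock_cre than in the other lines (0.64 ± 0.39 on the log2 scale, against means from -0.08 to 0.07). With that ratio as a covariate the change of MRPL10 was -0.12 (limma adjusted p = 0.385), and without the mock_cre arrays it was -0.23 (limma adjusted p = 0.0616).

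MRPS18C is 1 of 3 human genes related to the bacterial small-subunit protein S18, and the 3 did not move together. MRPS18C was 0.24, 0.07, 0.26 and 0.14 in mock, -0.06, -0.03, -0.01 and -0.14 in LhTERTL, 0.17, 0.15, 0.09 and -0.03 in mock_cre, and -0.09, -0.26, -0.16 and -0.04 in LhTERTL_cre. It fell by 0.23 ± 0.05 (limma adjusted p = 0.00113), without overlap in either pair of lines, and 1 of its 3 probe sets passed by itself. MRPS18A, whose protein sits in the large subunit despite its name, rose by 0.14 ± 0.05 (limma adjusted p = 0.0236), with LhTERTL between 0.07 and 0.29, mock between -0.18 and 0.01, and the cre+ lines overlapping. The rise of MRPS18A missed the threshold without mock tumour 2 (0.13, limma adjusted p = 0.0539), without LhTERTL tumour 1 (0.12, limma adjusted p = 0.0559) and without the mock_cre arrays (0.16, limma adjusted p = 0.0671). MRPS18B differed by 0.04 ± 0.05 (limma adjusted p = 0.578), and its lines overlapped.

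MRPS21 and MRPS5, counterparts of bacterial S21 and S5, lay close to the threshold, as did MRPL52 among the genes that rose (limma adjusted p = 0.0434). MRPS21 ran from -0.12 to 0.15 in mock, -0.25 to 0.00 in LhTERTL, -0.19 to 0.26 in mock_cre and -0.40 to 0.05 in LhTERTL_cre, a change of -0.20 ± 0.07 (limma adjusted p = 0.0492). MRPS5 ran from -0.11 to 0.12, -0.33 to 0.03, 0.02 to 0.26 and -0.42 to 0.05 in the same order, a change of -0.20 ± 0.07 (limma adjusted p = 0.0433). Neither passed in either pair of lines alone. Leaving out a single array ended the call of MRPS21 for 13 of the 16 arrays, all but mock tumour 3, mock_cre tumour 1 and LhTERTL_cre tumour 4 (limma adjusted p from 0.0507 to 0.106). It ended the call of MRPS5 for 9 arrays: mock tumours 1, 2 and 4, LhTERTL tumours 2 and 3, mock_cre tumours 2, 3 and 4, and LhTERTL_cre tumour 1 (limma adjusted p from 0.0536 to 0.096).

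When each line was averaged to 1 value, so that 2 lines stood on each side, limma called 0 of the 74 genes and 0 of all 20276. Of the 74, 17 had an unadjusted p under 0.05, and the smallest adjusted p was 0.167. The share of all genes with an unadjusted p under 0.05 in that fit is not given here. The count of 32 calls became 24 when the mock_cre arrays were left out (21.5% of all genes then passed) and 31 when the 3'/5' ratio was a covariate (25.7% of all genes).

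Promoters of many of these genes carry recognition motifs of factors that are known to drive nuclear genes for mitochondrial proteins, and the stretches shown are those of genes described in this account or of the same motif group. RefSeq's promoter windows (GRCh38.p14, 250 bases before to 50 after the start of the gene) matched 66 of the 74 genes. The motif AAGATGGCG, bound by YY1 and often found just after the start, was in the window of 13 of the 66 (19.7%), against 3.41% of the 14944 measured genes with a window. Examples follow, 5' to 3' on the strand of the gene, with the motif in capitals.
MRPS10, chr6:42217833-42217862, minus strand: cgggaccggcAAGATGGCGgcgcggacagc
MRPS18A, chr6:43687763-43687792, minus strand: taggtttttgAAGATGGCGgccctcaaggc
MRPS18B, chr6:30617853-30617882, plus strand: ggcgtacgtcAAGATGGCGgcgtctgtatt
MRPS30, chr5:44808950-44808979, plus strand: atcgcgggcaAAGATGGCGgcggccaggtg
The first base of the motif was base 10 after the start in MRPS10 and MRPS18A, base 14 in MRPS30 and base 24 in MRPS18B. MRPS18A and MRPS18B, with the same letters at the start, differed in the call: the former rose and the latter did not pass.

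The ETS motif CCGGAAGT, bound by the GABP complex among others, was in 11 of the 66 windows (16.7%), against 7.33% of all genes. It is shown for 3 large-subunit genes that rose, in MRPL18 and MRPL52 on the opposite strand (ACTTCCGG).
MRPL18, chr6:159790429-159790458, plus strand: ggggacttgctACTTCCGGgtcggtggcgt
MRPL47, chr3:179604659-179604688, minus strand: ggcttgagacgCCGGAAGTgacgctatcgt
MRPL52, chr14:22829870-22829899, plus strand: aggccacgcctACTTCCGGctaccccggct
MRPL47 rose by 0.22 ± 0.07 and MRPL52 by 0.23 ± 0.08. The motif CGCANGCG of NRF1, a known activator of nuclear genes for mitochondrial proteins, was in 14 of the 66 windows (21.2%), against 17.5% of all genes. It is shown for 4 of the 5 of them that rose, on the opposite strand in MRPL30.
MRPL14, chr6:44127412-44127441, minus strand: tgggcctggcgCGCAGGCGctaggaagagg
MRPL30, chr2:99181058-99181087, plus strand: tgatacccaggCGCCTGCGctctctttcta
MRPL34, chr19:17305627-17305656, plus strand: aatgccttgtgCGCACGCGcttgctcagaa
MRPS33, chr7:141015088-141015117, minus strand: tagccttactgCGCAGGCGccaggtacacc
The E-box CACGTG was in 10 of the 66 windows (15.2%), against 11.1% of all genes. Both strands were searched, and 0 matches of different motifs overlapped in the windows of these genes. Among the 25 genes with a window that rose, 5 held the YY1 motif, 3 the ETS motif, 5 the NRF1 motif and 3 the E-box; among the other 41 the counts were 8, 8, 9 and 7. A match is a run of letters and not a measured binding site.

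In LhTERTL minus mock, where the exogenous hTERT differed along with telomere length, 23 of the 74 genes rose and 2 fell (limma, adjusted p under 0.05; 20.3% of all genes passed, 12.3% higher and 7.99% lower). The median change was 0.12, against 0.01 over all genes. MRPL14 (0.63 ± 0.08), MRPL37 (0.54 ± 0.10) and MRPL15 (0.51 ± 0.07) rose most. MRPL1, whose bacterial counterpart forms the stalk near the exit site for transfer RNA, fell by 0.39 ± 0.12 (limma adjusted p = 0.0262). It was 0.24, 0.14, 0.23 and 0.33 in mock and -0.03, -0.43, 0.02 and -0.19 in LhTERTL, without overlap. The call of MRPL1 ended when mock tumour 1 (limma adjusted p = 0.0566), mock tumour 4 (0.0767), LhTERTL tumour 2 (0.0965) or LhTERTL tumour 4 (0.056) was left out. MRPS18C was the other gene that fell (-0.24, limma adjusted p = 0.0203). Its call ended without mock tumour 1 (limma adjusted p = 0.0656), mock tumour 3 (0.06) or LhTERTL tumour 4 (0.0608).

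In LhTERTL_cre minus mock_cre, where exogenous hTERT was absent from both lines, 18 of the 74 genes rose and 2 fell (limma, adjusted p under 0.05; 28.0% of all genes passed, 15.0% higher and 13.0% lower). The median change was 0.08, against 0.02 over all genes. It was 0.04 without mock_cre tumour 1 and 0.01 with plain probe sets only, where the medians over all genes were 0.0084 and 0.013. MRPL15 (0.84 ± 0.07), MRPL48 (0.63 ± 0.07) and MRPS28 (0.61 ± 0.08) rose most. The genes that fell were MRPL10 (-0.36 ± 0.10, limma adjusted p = 0.0112) and MRPS18C (-0.23, limma adjusted p = 0.0171); the call of MRPS18C ended without mock_cre tumour 1 (0.0504) or LhTERTL_cre tumour 2 (0.0694). The 3'/5' ratio spanned 0.40 to 1.21 in mock_cre and -0.29 to 0.21 in LhTERTL_cre, without overlap. In this pair, which is also part of the mean over the pairs, line and RNA quality therefore cannot be told apart. With the 3'/5' ratio in the fit 16 of the 74 were called, all of them higher, and 17.2% of all genes were called. MRPL10 then stood at -0.15 (limma adjusted p = 0.527) and MRPS18C at -0.25 (limma adjusted p = 0.122).

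These contrasts share no tumour, but their spread came from 1 fit over all 16 arrays, with 1 line on each side. In both, 14 of the 74 genes rose (18.9%), against 6.04% of all genes: MRPL13, MRPL14, MRPL15, MRPL18, MRPL30, MRPL37, MRPL43, MRPL48, MRPS6, MRPS10, MRPS12, MRPS15, MRPS16 and MRPS28. MRPS18C fell in both, as did 3.90% of all genes. The sign was positive in both pairs for 43 genes, negative in both for 9 and opposite for 22. Across the 74 genes the changes of the pairs had a Pearson r of 0.57, against 0.48 across all genes; genes measured on the same arrays are not independent replicates.

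**Figure D4:**
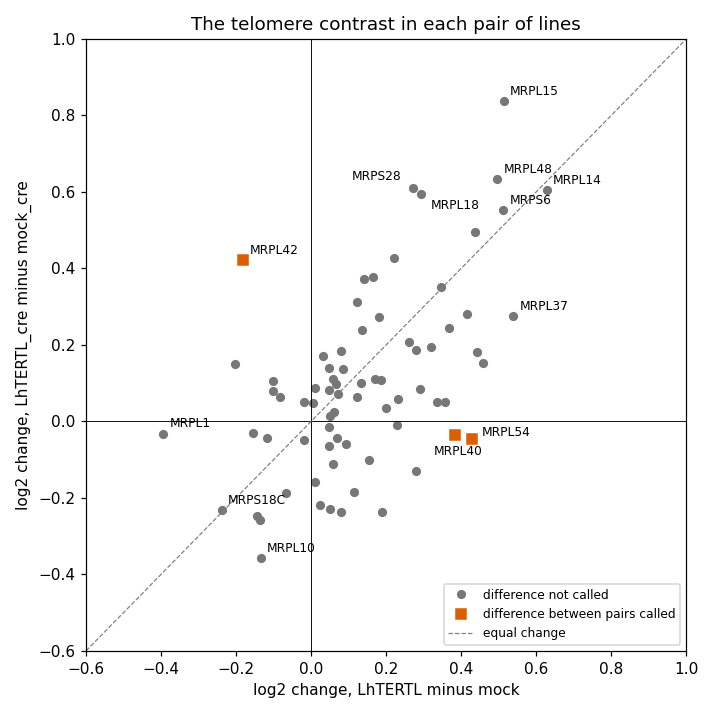
Change in LhTERTL minus mock (log2, horizontal axis) against change in LhTERTL_cre minus mock_cre (vertical axis) for the 74 genes, with the line of equal change dashed. MRPL15, MRPL14 and MRPL48 lie far up in both, and the 3 orange squares are MRPL42, MRPL40 and MRPL54, whose changes differed between the pairs.

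The test of the difference between the pairs called 3 of the 74 genes, 1 in the positive and 2 in the negative direction (limma, adjusted p under 0.05; 10.6% of all genes passed, 4.99% and 5.63%). MRPL42, a protein that bacteria lack, changed by -0.18 (limma adjusted p = 0.140) in LhTERTL minus mock and by 0.42 in the cre pair, a difference of 0.60 ± 0.12 (limma adjusted p = 0.00308). Its values were 0.25, 0.13, 0.07 and 0.28 in mock, 0.07, -0.06, 0.04 and -0.03 in LhTERTL, -0.23, -0.47, -0.36 and -0.44 in mock_cre, and 0.14, 0.20, -0.01 and -0.15 in LhTERTL_cre. The mock_cre tumours were the ones set apart: all 4 lay below the other 12.

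MRPL40 and MRPL54, large-subunit proteins that bacteria lack, differed the other way. MRPL40 was -0.20, -0.30, -0.30 and -0.25 in mock and 0.12, 0.15, 0.03 and 0.19 in LhTERTL, while mock_cre (-0.10 to 0.17) and LhTERTL_cre (-0.16 to 0.13) overlapped. Its change was 0.38 in LhTERTL minus mock and -0.04 in the cre pair, a difference of -0.42 ± 0.10 (limma adjusted p = 0.0135). For MRPL40 it was the mock line that lay apart, below all others.

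MRPL54 was -0.06, -0.14, 0.01 and -0.06 in mock, 0.47, 0.40, 0.30 and 0.29 in LhTERTL, -0.16, -0.16, 0.12 and 0.11 in mock_cre, and between -0.18 and 0.00 in LhTERTL_cre. Only LhTERTL, the line with exogenous hTERT, stood apart, above the other 12 tumours. The change was 0.43 in LhTERTL minus mock and -0.05 in the cre pair, a difference of -0.48 ± 0.11 (limma adjusted p = 0.00977). With the 3'/5' ratio in the fit the differences of MRPL40 (-0.34, limma adjusted p = 0.116) and MRPL54 (-0.39, limma adjusted p = 0.0938) did not pass.

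Between the long-telomere lines, which differ in the exogenous hTERT and in cre, 0 of the 74 genes rose and 3 fell in LhTERTL_cre (limma, adjusted p under 0.05; 3.24% of all genes passed, 0.922% higher and 2.32% lower). At an unadjusted p under 0.05, 1 was higher and 13 lower, against 1283 and 1912 of all 20276 genes. The median change was -0.07, against -0.01 over all genes, and 20 of the 74 (27.0%) were positive, against 47.6% of all genes. MRPL54 fell by 0.43 ± 0.08 (limma adjusted p = 0.00467) and MRPS6 by 0.42 ± 0.09 (limma adjusted p = 0.019), both without overlap. MRPL43, another large-subunit protein that bacteria lack, fell by 0.30 ± 0.08 (limma adjusted p = 0.0391), from 0.44, 0.27, 0.34 and 0.41 in LhTERTL to 0.30, -0.09, -0.02 and 0.08 in LhTERTL_cre. LhTERTL_cre tumour 1 lay within the LhTERTL tumours for MRPL43, and its call ended in 11 of the 26 alternative settings. Among them were leaving out mock tumours 1 or 2, any LhTERTL tumour, or LhTERTL_cre tumours 2 or 3 (limma adjusted p from 0.0503 to 0.15). The call of MRPS6 ended without LhTERTL tumour 1, LhTERTL tumour 2, LhTERTL_cre tumour 2 or LhTERTL_cre tumour 3 (limma adjusted p from 0.0563 to 0.0722). The count of 3 became 6 without LhTERTL_cre tumour 4 and 1 without LhTERTL tumour 1, LhTERTL tumour 2, LhTERTL_cre tumour 2 or LhTERTL_cre tumour 3. Of all genes 4.89%, 1.84%, 1.54%, 1.31% and 1.94% passed in the same order.

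Between the short-telomere lines 7 of the 74 genes were higher and 12 lower in mock_cre than in mock (limma, adjusted p under 0.05; 19.0% of all genes passed, 9.00% higher and 10.1% lower). The median change was -0.01, against -0.02 over all genes. It was -0.05 without mock_cre tumour 4, -0.03 without mock tumour 3 or mock_cre tumour 3, and 0.00 (0.0032 and 0.0015) without mock_cre tumour 1 or 2, so that it has no settled sign. MRPL42 (-0.56 ± 0.08, limma adjusted p = 0.000146), MRPS6 (-0.46 ± 0.09, limma adjusted p = 0.00203) and MRPS28 (-0.43 ± 0.08, limma adjusted p = 0.00101) fell most. MRPS14, the counterpart of bacterial S14, rose by 0.31 ± 0.09 (limma adjusted p = 0.0205), and MRPL40 rose by 0.28 ± 0.07 (limma adjusted p = 0.0104). MRPL50, which bacteria lack, rose by 0.29 ± 0.10 (limma adjusted p = 0.0493), and this call ended in 20 of 26 alternative settings, 11 of them leaving out a single array (any of the 16 but mock tumour 3, mock_cre tumours 2 and 4, and LhTERTL_cre tumours 2 and 4; limma adjusted p up to 0.161). MRPL15 (-0.39), MRPL18 (-0.32) and MRPL48 (-0.21) were also among the genes that fell; this comparison shares its tumours with those of telomere length.

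Between the short-telomere lines the RNA quality sign differed along with the line, so that their parts cannot be told apart. The 3'/5' ratio spanned 0.40 to 1.21 in mock_cre and -0.14 to 0.30 in mock, without overlap. With that ratio as a covariate 5 of the 74 were called, all of them lower, and 9.05% of all genes were called, against 19.0% without it. MRPL40 then stood at 0.20 (limma adjusted p = 0.228), MRPS14 at 0.32 (limma adjusted p = 0.124) and MRPS6 at -0.40 (limma adjusted p = 0.0644). The call of MRPS14 also ended without mock tumour 2 (limma adjusted p = 0.0749), mock tumour 4 (0.053), mock_cre tumour 3 (0.0604) or mock_cre tumour 4 (0.0595). The count of 19 fell to 11 without mock tumour 1 or mock tumour 2, to 10 without mock tumour 4 and to 12 without mock_cre tumour 3. Of all genes 14.3%, 15.3%, 14.1% and 15.3% passed in the same order.

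Cytosolic ribosomal protein genes, which build the other ribosome of the cell, and nuclear respiratory chain genes gave similar counts. From short to long telomeres 40 of 81 cytosolic ribosomal protein genes rose and 2 fell, with a median change of 0.11, and 30 of 77 respiratory chain genes rose and 9 fell, with a median of 0.10. Examples are RPL3 (0.45) and RPL39L (0.74) in the former and ATP5F1C (0.43), NDUFB2 (0.38) and SDHC (0.38) in the latter. Differences between these groups and the mitochondrial ribosomal protein genes were not tested. In the cre pair the medians were 0.08 for the mitochondrial ribosomal protein genes (0.04 without mock_cre tumour 1), 0.04 for the cytosolic ones (15 rose, 3 fell) and 0.04 for the respiratory chain (21 rose, 9 fell). Between the short-telomere lines, 12 cytosolic ribosomal protein genes rose and 2 fell in mock_cre. Over all genes 18.5% rose and 14.1% fell from short to long telomeres. The shares of all genes were 15.0% and 13.0% in the cre pair, and 9.00% and 10.1% between the short-telomere lines.

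**Figure D5:**
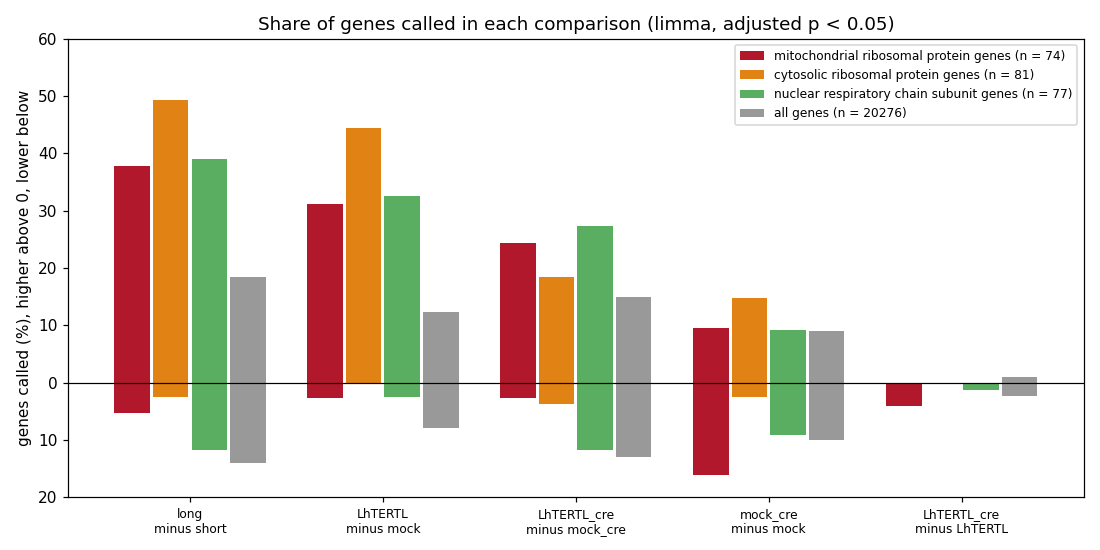
Share of genes called in each comparison (percent, vertical axis; higher drawn above 0 and lower below) for the mitochondrial ribosomal protein genes, the cytosolic ones, the nuclear respiratory chain genes and all genes. From short to long telomeres 37.8% of the mitochondrial ribosomal protein genes were higher and 5.41% lower, against 18.5% and 14.1% of all genes.

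Other genes of mitochondrial translation moved in both directions. Over all genes 32.6% passed from short to long telomeres, 18.5% higher and 14.1% lower. Of 7 mitoribosomal proteins with other symbols 4 rose and 1 fell, among them CHCHD1 (0.23), MRPL57 (0.22, named MRP63 in the files) and AURKAIP1 (0.19). Of 24 assembly factors 5 rose and 6 fell: MRM2 (0.49), which methylates the large ribosomal RNA, and MTG1 (0.31), a GTPase of large-subunit assembly, rose, while MTG2 (-0.36), another such GTPase, fell. Of 16 translation factors 5 rose and 0 fell by limma's adjusted p (2 were lower at an unadjusted p under 0.05), led by MTFMT (0.51), which formylates the initiator transfer RNA. In these lists, in order, 71.4%, 45.8% and 31.2% passed, the last near the share of all genes.

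Of 22 mitochondrial tRNA synthetases 6 rose and 0 fell by limma's adjusted p (0 were lower at an unadjusted p under 0.05), among them RARS2 (0.38), GARS1 (0.28) and HARS2 (0.19), which charge transfer RNA with arginine, glycine and histidine. Of 31 factors of mitochondrial DNA and RNA 9 rose and 4 fell: MGME1 (0.51), a nuclease of mitochondrial DNA, rose, while POLG2 (-0.50), a subunit of its polymerase, and PNPT1 (-0.49), an RNA-degrading enzyme, fell. Of 28 measured genes of protein import 10 rose and 2 fell, among them TOMM34 (0.49), TIMM8B (0.46) and TOMM5 (0.35). In these lists, in order, 27.3%, 41.9% and 42.9% passed, against 32.6% of all genes. Differences of the lists from all genes were not tested.

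The 74 genes lie on 21 chromosomes. The 3 on chromosome 8 (MRPL13, MRPL15 and MRPS28) all rose, as did 24.8% of the measured genes there. Of the 6 on chromosome 6, MRPL14, MRPL18, MRPS10 and MRPS18A rose, as did 30.7% of the genes there. For the 8 largest rises, the median change of the 5 measured genes on either side was smaller than that of the gene itself. These genes were picked for their large change, so this comparison says nothing about a shift of the region, which was not tested. For some other members the median of the neighbours was larger (MRPL2 changed by 0.11 and its neighbours by a median of 0.14). The median change of the neighbours was -0.01 around MRPL15, 0.10 around MRPL14, 0.06 around MRPL48, 0.08 around MRPL18, 0.05 around MRPS6, 0.06 around MRPS10, 0.02 around MRPS28 and 0.10 around MRPL37. A median can hide opposite moves: around MRPS28, 4 of the 10 neighbours were called higher and 3 lower.

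After each line's mean was removed, the correlation between 2 of the genes over the 16 tumours had a median of 0.23 over 2701 pairs, and 71.9% of the pairs were positive; all genes of a tumour share its array and normalization. The same median was 0.25 for cytosolic ribosomal protein genes and 0.15 for respiratory chain genes.

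Of the 74 genes, 41 had 1 probe set and 33 had several. From short to long telomeres the probe sets had 1 sign in 18 of the 33 and differed in sign in 15, and no gene had probe sets called in opposite directions. In LhTERTL_cre minus mock_cre, 1 probe set of MRPL19 rose by 0.40 and another fell by 0.52, both past the threshold, so that its mean does not describe either.

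The labels and the array were checked at TERT. Of its probe sets, 1 stood between 2.82 and 3.41 in LhTERTL and between -0.57 and 0.30 in the other tumours. The mean of the probe sets of TERT rose by 1.27 ± 0.12 (limma adjusted p = 2.63e-06) in LhTERTL minus mock. Its other probe set was lower in LhTERTL (-0.20 to -0.03) than in mock (0.03 to 0.77). The poly-A spike controls split the arrays into 5 with high and 11 with low signal. From short to long telomeres 25 of the 74 genes were called on the low arrays (24.1% of all genes). The high class held a single array of mock, of LhTERTL and of LhTERTL_cre, so no count is given for it. Of the marker lists, 1 of 7 fibroblast genes rose (COL1A1, 0.30), 1 of 6 endothelial genes rose (PECAM1, 0.39) and 1 fell (KDR, -1.18), and of 5 macrophage, 5 muscle and 4 adipocyte genes limma called 0 (1 adipocyte gene was lower at an unadjusted p under 0.05). Of 4 genes that mark PC-3 cells limma called 1 from short to long telomeres, VIM, which rose (0.44). In LhTERTL minus mock 2 of these 4 rose and 0 fell (12.3% and 7.99% of all genes). In LhTERTL_cre minus mock_cre 1 rose and 2 fell (15.0% and 13.0% of all genes). The means of these 4 ran from -0.52 to -0.18 in mock and 0.06 to 0.16 in LhTERTL. They ran from 0.00 to 0.42 in mock_cre and -0.41 to 0.17 in LhTERTL_cre. The fibroblast means ran from -0.08 to 0.05, 0.07 to 0.24, -0.06 to 0.06 and -0.02 to 0.04 in the same order. The part of these markers, of mouse host cells and of the spike split in the changes of the mitochondrial ribosomal protein genes was not tested.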

How the data were processed

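RNA of 16 tumours was measured on Affymetrix arrays, from 100 ng of total RNA, 1 array per tumour. The deposited values are log2 signals made by RMA, per the submitters' processing notes; the platform and the software version are not given in the sources used here. In the deposited values every probe set is centred on its median over the 16 arrays (largest median 0.5 millionths of a log2 unit), a step the labels do not mention. Because no level remains, no filter on dim probe sets and no check of brightness was possible. The deposited tables held identical log2 values.

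Of 54675 probe sets 41476 named 1 gene, 961 several, 12176 none and 62 were controls. Probe sets of 1 gene were averaged per gene, 6 gene identifiers with clashing symbols were left out, and 20276 genes remained; 19249 matched RefSeq's gene table (GRCh38.p14), which updated 3313 symbols and gave gene order. Members keep the symbol of the files; MRPS36 is now KGD4. A total of 3 probe sets naming a member and another gene were not used in the counts.

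The fit used limma 3.58.1 (R 4.3.3) with 1 mean per line over all 16 arrays, contrasts and moderated variances; tests were two-sided, and a call is a Benjamini-Hochberg adjusted p under 0.05 over all genes. Changes are log2 differences with standard errors; the 4 arrays per group limit the precision. The pipeline was tested on simulated data. Motifs were searched in RefSeq's promoter windows. Python 3.11.15 (pandas 2.3.3, numpy 2.4.6, matplotlib 3.10.9) served for tables and plots.

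The members, the lists of other genes and the tests were chosen with earlier results of these data known. Named by rule were the up to 8 largest rises and falls among members called from short to long telomeres whose sign was equal in the pairs, up to 3 rises and 3 falls per further contrast, the MRPS18 genes, up to 3 called genes of each list and TERT. Other members were named after their values were seen. A gene that this rule picks from a list is not reported here. Alternatives were other probe set summaries, array centring and quantile normalization, stricter thresholds, a trended robust variance, array weights, the replicate number as a block, the 3'/5' ratio in the fit, the spike class as a block, the arrays of a contrast alone, no mock_cre arrays, line averages and leaving out each array; the spike classes taken separately were added after seeing the data.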

Additional observations from a re-analysis of the deposited data

Results flagged for a closer look

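A total of 88 groups of 4 values (each of the 21 named members, and the mean over all members, in each line) and the differences between the pairs of lines were searched for unusual values; chance marks about 1 in 20 such groups, and 3 of the 88 held a tumour far from the other 3 of its line. For MRPL43, mock tumour 3 stood at -0.0242 while the other mock tumours stood at -0.06. For MRPS5, LhTERTL_cre tumour 1 stood at -0.42, against -0.02 to 0.05 in the others of its line. For MRPS6, LhTERTL_cre tumour 4 stood at 0.16, against -0.01 to 0.01 in the others.

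The change from short to long telomeres differed between the pairs of lines for MRPL42 (difference 0.60, limma adjusted p = 0.00308), MRPL54 (-0.48, limma adjusted p = 0.00977) and MRPL40 (-0.42, limma adjusted p = 0.0135).

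Among probe sets not used in the counts, the one that names both MRPL53 and CCDC142 was higher with long telomeres by 0.33 (limma adjusted p = 0.00359, adjusted over all probe sets). It cannot be assigned to either gene. The probe set naming MRPS17 and ZNF713 differed by 0.15 (limma adjusted p = 0.0739), and the one naming MRPL51 and SPTLC1 by 0.13 (limma adjusted p = 0.144).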

How the results depend on the processing

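From short to long telomeres 32 members were called. The count was 21 at an adjusted p under 0.01 and 4 when a change of 0.5 log2 units was also required. It was 18 with plain probe sets only (of 43 members with one). With each line averaged it was 0 (limma, with 17 at an unadjusted p under 0.05), and leaving out each array it was 28 to 34. Of all genes 29.4% passed with plain probe sets, 0 with each line averaged and 29.9% to 34.0% leaving out each array. In LhTERTL minus mock (25) the count of members was 4 with the size required, 14 with plain probe sets and 21 to 27 leaving out each array. Of all genes 17.5% passed with plain probe sets and 15.5% to 21.5% leaving out each array. In LhTERTL_cre minus mock_cre (20) the count was 6 with the size required, 12 with plain probe sets, 16 to 25 leaving out each array and 13 at an adjusted p under 0.01. Of all genes 25.4% passed with plain probe sets and 22.7% to 29.7% leaving out each array. In mock_cre minus mock (19) the count was 6 at 0.01, 1 with the size required, 11 with plain probe sets, 11 after quantile normalization, 5 when the 3'/5' ratio was in the fit, 12 on the 8 arrays alone and 10 to 20 leaving out each array. Of all genes 16.8% passed with plain probe sets, 15.2% after quantile normalization and 9.05% with the ratio in the fit. The share was 18.1% on the 8 arrays alone and 14.1% to 20.6% leaving out each array. In LhTERTL_cre minus LhTERTL (3) the count of members was 1 at 0.01, 0 with the size required (limma, with 3 without it and 14 at an unadjusted p under 0.05), 5 with array weights and 1 to 6 leaving out each array. Of all genes 6.22% passed with array weights and 1.31% to 4.89% leaving out each array. For the difference between the pairs (3) the count of members was 1 with the size required, 5 after quantile normalization, 9 with array weights, 1 with the ratio as a covariate, 5 with the spike class as a block and 3 to 8 leaving out each array (6 without mock tumour 3, 8 without mock_cre tumour 1, 7 without LhTERTL_cre tumour 4). Of all genes 9.05% passed after quantile normalization, 16.5% with array weights, 4.80% with the ratio and 11.8% with the spike class. The share was 7.61% to 13.4% leaving out each array. Shares of all genes at the stricter thresholds, and at an unadjusted p with line averages, are not given here. Stricter thresholds lower a count by construction, and plain probe sets left fewer members to call. Leaving out an array lowered some counts and raised others. For the other settings the cause was not tested.

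The median change of the members from short to long telomeres lay between 0.05 and 0.11 under the alternatives. MRPS18B, not called, turned from 0.04 to -0.0152 with plain probe sets. Of 401 values of named members under alternatives in that comparison, 340 kept their direction and side of the threshold and 60 missed the threshold, 20 of them MRPS21 and 15 MRPS5.

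The data did not show whether the replicate numbers in the labels pair tumours. Correlations between arrays of equal number, with line means removed, ran from -0.33 to 0.37 over 24 pairs, and 9 were over 0.1. The best match of an array was one of equal number for 5 of 16. With the replicate number as a block 31, 24, 21, 16 and 3 members were called in the 5 comparisons above, in that order, and 5 for the difference between the pairs. Of all genes 32.9%, 20.4%, 28.2%, 19.0%, 3.04% and 10.7% passed in the same order.

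The limits are the single line on each side of every pair, the 4 tumours per line, and values without level, so that dim probe sets could not be set aside.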
